A study of Mus musculus with 4 samples.

Results

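The genes described here are 36 genes of the lysosome in mouse induced regulatory T (iTreg) cells. They comprise 3 genes of the TFEB family of transcription factors (Tfeb, Tfe3 and Mitf), 4 genes of lysosomal membrane proteins, 7 cathepsins, 6 glycosidases, 4 lipid hydrolases and cofactors, and 12 subunits of the vacuolar proton pump (V-ATPase). The members were chosen by symbol, with older names accepted. No rule on their measured values was used, but earlier results of these data were known. They took 37 of the 47729 gene rows of the count table, because the symbol Glb1 stands for 2 gene identifiers. All 36 passed the filter on low counts, which kept 13732 genes.

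RNA was sequenced from CD4 T cells of C57BL/6 mouse spleen that were differentiated in culture, to ask how added iron changes the transcriptome of iTreg cells. Per the study's methods, the cells of iTreg cultures were activated with antibodies against CD3 and CD28. The medium of both groups held TGF-β at 5 ng/mL, IL-2 at 100 U/mL, and antibodies against IL-4 and IFN-γ at 5 µg/mL each. The FeSO4 group received ferrous sulfate at 50 µM for 4 days, and the Mock group received PBS for the same time. Each group had 2 libraries, and the reads in gene rows came to 39747890 and 40859178 for Mock and to 35183187 and 37735336 for FeSO4. No transgene or deletion was named for these cells. Mice of both sexes were used in the study, and which of them gave these cells is not given in the sources used here. The study's methods describe the libraries as pairs from independent experiments, but the labels do not say that a replicate number marks a pair, so the libraries were compared unpaired and p-values measure the spread between these libraries, which may in part be technical.

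Lysosomes are acidic organelles in which proteins, sugars and lipids taken up from outside or delivered by autophagy are broken down. The V-ATPase pumps protons into endosomes and lysosomes, and the acid releases iron from transferrin and allows ferritin to be degraded. TFEB and its relatives are held in the cytoplasm when the kinase mTORC1 is active on the lysosomal surface, and in the nucleus they bind E-box type elements in the promoters of many lysosomal genes.

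Those elements are shown first, because they are the feature that many of the members share in their sequence. Promoters were taken from the RefSeq table of mouse build GRCm38.p6, each spanning 250 bases before to 50 bases after a start site. The table held 39 promoters of 30 members, and those of Atp6v0a2, Atp6v1b2, Atp6v1c1, Atp6v1h, Asah1 and Ctsb were not matched. The 6 letters CACGTG, which read the same on both strands, were present in the promoters of 11 of the 30 genes (36.7%), against 8.09% of the 27025 genes in the table. The 7 letters TCACGTG, on either strand, were found for 10 members (33.3%, against 4.29% of all genes). The 8-letter palindrome TCACGTGA, which contains both shorter motifs, was found for 6 members (20.0%, against 1.12% of all genes). A match describes the letters only, and an absent match says no more than that these letters are not in that window. One window of 24 bases is printed for each of the 11 genes, 5′ to 3′ on the strand of the gene, with the core and a flanking T or A in capitals.

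Lamp1: gcaagataTCACGTGgtccagcgc
Mcoln1: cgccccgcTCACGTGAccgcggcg
Ctsa: gcaaactgTCACGTGAtgcagatg
Ctsd: cccgcgtcTCACGTGAcccgttga
Ctsl: gttagaagcCACGTGctgatctaa
Gaa: ctgtgcgaTCACGTGtttgactct
Gla: gatctcggTCACGTGAgcaactct
Glb1: cttctgagTCACGTGgcctacaga
Atp6v0b: tcggcgcaTCACGTGcgccggtca
Atp6v0d1: tactgcggTCACGTGAgacgcggt
Atp6v1a: tttttaaaTCACGTGAtaggctta

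All of these windows start upstream of the annotated start of transcription, which is position 0 here. The Lamp1 window lies at chr8:13159091-13159114 on the plus strand, with its core beginning at position -61, and it is the first of 4 such cores in that promoter. The Mcoln1 window (chr8:3500465-3500488, plus strand) has its core at -45, and a further core lies at -71. The Ctsa core (chr2:164833752-164833775, plus strand) is at -12, next to another that begins at 5, inside the transcript. The Ctsd window is at chr7:142387911-142387934 on the minus strand, with the core at -98 and a further core at -245. Ctsl carried the 6 letters alone, at -236 (chr13:64370742-64370765, minus strand). The Gaa core is at -140 (chr11:119267814-119267837, plus strand). Gla held the full palindrome at both -194 and -227, and the window shown is chrX:134601185-134601208 on the minus strand. The Glb1 core is at -48 (chr9:114401021-114401044, plus strand). Among the pump subunits, Atp6v0b had cores at -18 and -36 (the first at chr4:117887333-117887356, minus strand), Atp6v0d1 at -3 (chr8:105566053-105566076, minus strand) and Atp6v1a at -131 (chr16:44139376-44139399, minus strand).

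The cells were checked against markers of their labelled type and of other cells. Cd4 ranged from 605.7 to 683.3 CPM (read counts relative to library size, scaled by the trimmed mean of M-values, TMM) and Cd3e from 303.5 to 346 CPM. Foxp3, the defining gene of Treg cells, was present in all 4 libraries but was lower with FeSO4, at 586.6 and 693.4 CPM in Mock and at 375.6 and 471.6 CPM in FeSO4 (log2 fold change -0.60 ± 0.09, edgeR adjusted p = 0.000223). Ikzf2, the gene of the Treg factor Helios, was also lower (-0.79 ± 0.14, adjusted p = 0.000986). Thus 2 of 5 Treg markers fell and 0 rose. By intracellular staining of iTreg cultures, the study reports that iron sulfate hardly changed Foxp3 induction. That is a measure of protein in cells, whereas the values here are RNA. Of 6 T cell markers 3 rose and 0 fell, among them the receptor chains Cd3d (0.38 ± 0.06, adjusted p = 0.000425) and Cd3g (0.50 ± 0.06, adjusted p = 2.04e-05). Over 8 monocyte and macrophage markers, Mock replicate 1 held 213 reads, of which 164 were from Lyz2. Mock replicate 2, FeSO4 replicate 1 and FeSO4 replicate 2 held 36, 13 and 33. Among these markers Adgre1 went the other way, with 8 reads in Mock replicate 1 and 28, 12 and 29 in the others. Mock replicate 1 also held the most reads over 5 B cell markers (293, against 91 to 111 in the other libraries). Of those 293 reads, 156 were from Igkc. The same library held the most over 5 neutrophil markers (41, against 0 to 1). Mast cell and NK cell markers summed to at most 5 reads in a library, and neither CD8 T cell marker was called. Among erythroid markers, the globin gene Hba-a1 was higher with FeSO4, at 24.5 and 19.61 CPM in Mock and at 37.48 and 32.47 CPM in FeSO4 (log2 fold change 0.66 ± 0.12, adjusted p = 0.000731), whereas Hbb-b1 had 12 reads in Mock replicate 1 and 0 in the others. The results on the members and the named genes of the lists that change without this library are given below with and without it. The part of these marker shifts in the results on the members was not tested. In RNA from bulk cultures, fewer cells of a type and less RNA per cell cannot be told apart.

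Of the 36 genes, 6 rose and 2 fell with FeSO4 at an adjusted p under 0.05 in edgeR's quasi-likelihood test, with Benjamini-Hochberg adjustment over all 13732 genes. The genes that rose were Ctss, Ctsz, Gla, Glb1, Asah1 and Grn, and those that fell were Lamp1 and Ctsl. With any 1 library left out the calls came to 3 or 4 higher and 0 or 1 lower, and none was lower without Mock replicate 1. The called share of 22.2% was close to that of all genes tested, of which 20.0% were called in either direction, 10.9% higher and 9.17% lower. The median log2 fold change of the 36 genes was 0.04, against -0.00052 over all genes tested. It was not stable in sign, at 0.0033 without Mock replicate 2, -0.0064 without FeSO4 replicate 1, 0.077 without FeSO4 replicate 2, and -0.024 with library size as the only scaling, where that of all genes was -0.07. A total of 7 of the 8 called genes encode hydrolases or their cofactors, a class that makes up 17 of the 36 members. No subunit of the V-ATPase and no gene of the TFEB family passed the threshold.

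**Figure D1:**
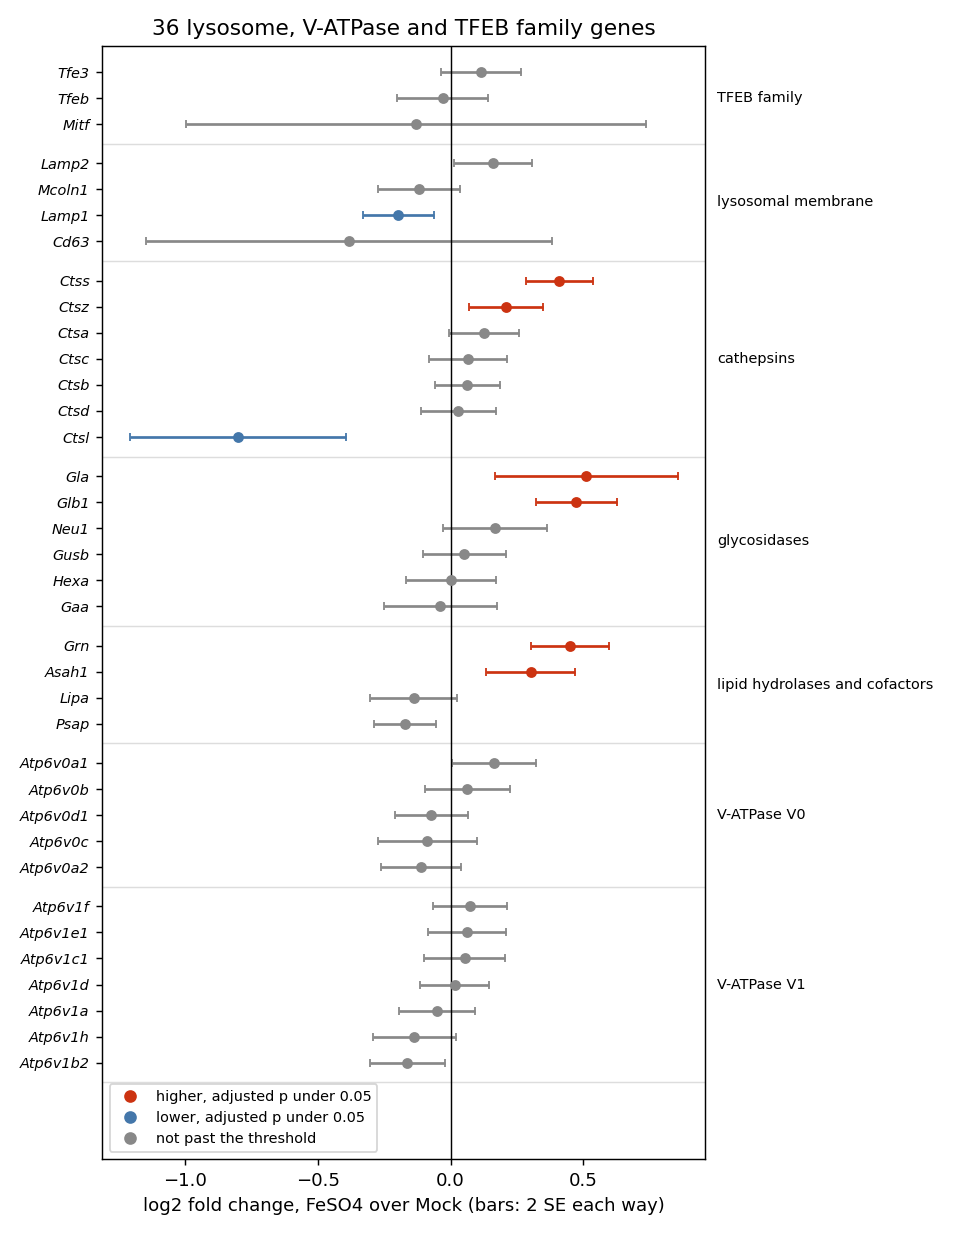
The log2 fold change of FeSO4 over Mock (horizontal axis) for the 36 genes, grouped by role, with bars of 2 standard errors each way from the fit over 2 libraries per group; red genes were called higher and blue genes lower. All 6 genes called higher are hydrolases or cofactors, and the 12 V-ATPase subunits lie between -0.16 and 0.16.

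Without regard to the test, the 2 FeSO4 libraries lay above both Mock libraries for 15 members, below both for 9, and overlapped for 12. Non-overlap was common in these data, since 59.5% of all genes tested had groups that did not overlap. The study used another threshold, which asks for a log2 fold change of 0.5 or more in size and an unadjusted p under 0.05. By it Gla remained higher and Ctsl lower, 2 members in all, whereas 10.4% of all genes tested passed it. The absolute log2 fold change of the members had a median of 0.12, against 0.20 over all genes tested.

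Messenger RNA levels differed far more between the members than between the groups. Levels were compared between genes as CPM per kilobase of exon (RPKM), with exon lengths from an older annotation (GENCODE M1). Psap, which encodes the precursor of the saposins, small proteins that present sphingolipids to their hydrolases, was the most abundant with 207.8 and 198.2 RPKM in Mock and 179.7 and 180.9 RPKM in FeSO4. Ctss followed with 110.9 and 114.5 RPKM in Mock and 148.2 and 151.3 RPKM in FeSO4. Ctsd (103.1 and 94.43 RPKM in Mock) and Atp6v1f (93.35 and 88.79 RPKM in Mock) came next, and their Mock ranges lay close together without overlapping. At the other end, Mitf was at 0.15 and 0.165 RPKM in Mock, and the next lowest, Cd63 and Gla, were between 1.28 and 2.18 RPKM in Mock.

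**Figure D2:**
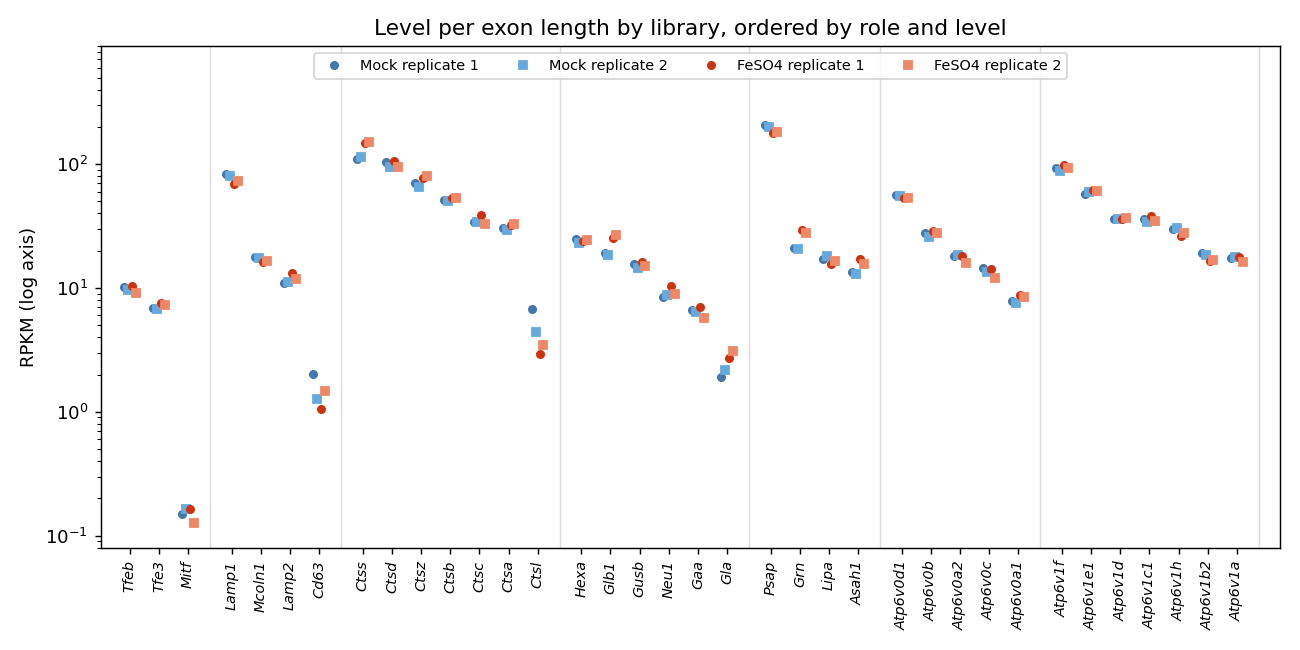
Level of each member per exon length (RPKM, log axis) in each of the 4 libraries, with genes grouped by role and ordered by level. Psap and Ctss stand at the top, Mitf and Cd63 near the bottom, and the spread between libraries is small beside the differences between genes.

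The TFEB family was described first among the roles, since its products act on the other members. Tfeb, the best known regulator of lysosomal genes, was at 57.97 and 54.57 CPM in Mock and at 58.55 and 51.73 CPM in FeSO4. The groups overlapped, with FeSO4 replicate 1 the highest and FeSO4 replicate 2 the lowest, and the log2 fold change was -0.03 ± 0.08 (SE, n = 2 per group, edgeR adjusted p = 0.849). Tfe3, a close relative with shared targets, was at 64.06 and 62.25 CPM in Mock and at 69.53 and 67.3 CPM in FeSO4. Both FeSO4 libraries of Tfe3 lay above both Mock libraries, but the log2 fold change of 0.12 ± 0.08 did not pass the test (adjusted p = 0.311). Mitf, which is best known from melanocytes and mast cells, was low, with 38 and 43 reads in Mock and 35 and 29 in FeSO4. Its log2 fold change of -0.13 had an SE of 0.43, so neither a rise nor a fall of moderate size was detectable at this depth. Intervals of 2 SE around the log2 fold change ran from -0.20 to 0.14 for Tfeb and from -0.04 to 0.27 for Tfe3. These are transcript levels, and the location of the proteins in the cell was not measured.

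Of the 4 genes of membrane proteins, 1 fell, beside 9.17% of all genes tested that were called lower. Lamp1 encodes an abundant glycoprotein of the lysosomal membrane. It was at 189 and 179.4 CPM in Mock and at 155.5 and 166.1 CPM in FeSO4, so that both FeSO4 libraries were below both Mock libraries. Its log2 fold change was -0.20 ± 0.07 (adjusted p = 0.0464). The call was lost when any 1 of the 4 libraries was left out, with log2 fold changes of -0.24 to -0.15. The exons of Lamp1 overlap those of Grtp1 on the opposite strand by 177 bp in the older annotation, and the strand setting of the counting is not given in the sources used here. The same limit holds for Ctsb (769 bp shared with Fdft1), Ctsa (495 bp with Pltp and 324 bp with Neurl2), Atp6v0b (243 bp with Gm12841) and Ctsz (10 bp with Th1l), while Ctsd shares 163 bp with 6330512M04Rik on its own strand.

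Lamp2, the second major membrane glycoprotein, which also takes part in chaperone-mediated autophagy, had values on the other side. It was at 105.5 and 107.2 CPM in Mock and at 125.5 and 112.2 CPM in FeSO4, with no overlap of the groups, but the log2 fold change of 0.16 ± 0.07 was not called (adjusted p = 0.137). Leaving out FeSO4 replicate 1 gave 0.077, and leaving out FeSO4 replicate 2 gave 0.24. Mcoln1, the gene of the calcium and iron channel mucolipin 1, was at 62.8 and 61.29 CPM in Mock and at 56.54 and 57.71 CPM in FeSO4 (log2 fold change -0.12 ± 0.08, adjusted p = 0.305). The tetraspanin gene Cd63 had 85 and 55 reads in Mock and 37 and 56 reads in FeSO4, and the groups overlapped. Its log2 fold change was -0.38 ± 0.38 (adjusted p = 0.531). Without Mock replicate 1, the library with the most reads summed over the macrophage markers, it was -0.02.

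Among the 7 cathepsins, 2 rose, 1 fell and 4 were not called. Over all genes tested, 10.9% were called higher and 9.17% lower, and a count over 7 genes is a description only. Ctss encodes cathepsin S, a cysteine protease known for trimming the invariant chain Cd74 from class II molecules. It was at 150.6 and 155.6 CPM in Mock and at 201.3 and 205.5 CPM in FeSO4, and the groups were far apart beside the spread within them. The log2 fold change was 0.41 ± 0.06 (adjusted p = 0.00026), a 1.33-fold rise. Ctss was called higher under all 13 alternative analyses that refitted the counts, with log2 fold changes of 0.345 to 0.433.

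Because Ctss is abundant in antigen-presenting cells, markers of dendritic cells were read beside it. Their summed level was 20.51 and 14.71 CPM in Mock and at 31.12 and 25.66 CPM in FeSO4, over 6 genes of which 4 passed the filter. Most of this sum came from Cd74, at 16.24 and 12.34 CPM in Mock and at 22.62 and 18.53 CPM in FeSO4 (log2 fold change 0.52 ± 0.14, adjusted p = 0.0162). Batf3 was also higher in FeSO4 (27, 23, 197 and 165 reads in Mock replicates 1 and 2 and FeSO4 replicates 1 and 2). H2-Aa (51, 27, 29 and 14 reads in the same order, log2 fold change -0.65 ± 0.53) and H2-Ab1 (91, 48, 63 and 85 reads, 0.30 ± 0.36), genes of class II chains, overlapped between the groups and were not called (adjusted p = 0.434 and 0.615). The defining markers Itgax and Flt3 were at or near 0, with 3, 0, 0 and 0 reads and 1, 1, 2 and 0 reads.

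Ctsz encodes cathepsin Z, a carboxypeptidase. It was at 100.6 and 94.6 CPM in Mock and at 110.6 and 115.1 CPM in FeSO4, with no overlap, and its log2 fold change was 0.21 ± 0.07 (adjusted p = 0.0441). The call was lost when any 1 library was left out, with log2 fold changes of 0.16 to 0.24, with 2 of the other scalings and with no filter on low counts.

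Ctsl, which encodes the cysteine protease cathepsin L, had the largest fold change of the members in the fit with all 4 libraries and moved downwards. It was at 13.26 and 8.70 CPM in Mock and at 5.78 and 6.78 CPM in FeSO4. Both FeSO4 libraries were below both Mock libraries, but the gap between the Mock libraries exceeded that between Mock replicate 2 and either FeSO4 library. The log2 fold change was -0.80 ± 0.20 (adjusted p = 0.0107). Without Mock replicate 1 the log2 fold change was -0.48 ± 0.22 and the call was lost (adjusted p = 0.166), while Glb1, at 0.49, then had the larger change. Mock replicate 1 was also the library with 213 reads of macrophage markers, 164 of them from Lyz2, against 13 to 36 in the others. The part of such cells in the level of Ctsl was not tested.

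The remaining cathepsins had adjusted p-values of 0.195 to 0.810. Ctsd, the major aspartic protease of lysosomes, was at 259.6 and 237.9 CPM in Mock and at 267.7 and 240.3 CPM in FeSO4. Ctsb, a cysteine protease, was at 241.3 and 238.9 CPM in Mock and at 251 and 250.8 CPM in FeSO4. The Ctsd groups overlapped, while those of Ctsb did not, and the log2 fold changes were 0.03 ± 0.07 and 0.06 ± 0.06. Ctsc, whose product activates granule serine proteases, had a log2 fold change of 0.07 ± 0.07, and Ctsa, the protective protein that stabilizes β-galactosidase and neuraminidase, one of 0.13 ± 0.07. Per exon length, Ctss made up 27.3% and 29.2% of the summed cathepsin RPKM in Mock and 32.4% and 33.7% in FeSO4, whereas Ctsl made up 1.65% and 1.12% in Mock and 0.639% and 0.765% in FeSO4. Neither share overlapped between the groups, but a share also depends on the levels of the other cathepsins and was not tested.

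**Figure D3:**
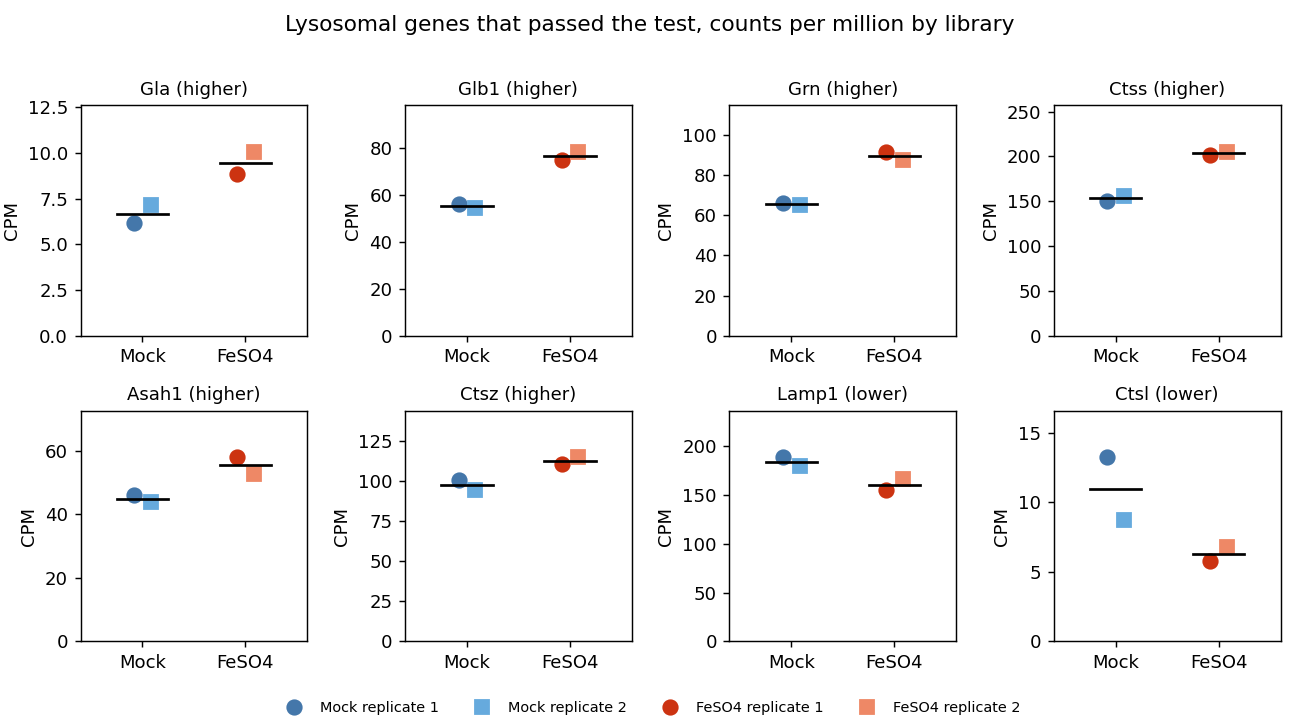
CPM (vertical axes from 0) of the 8 called genes in each library, with 2 points per group and a black line at the group mean. The groups do not overlap for any of the 8, and the Mock libraries of Ctsl lie apart at 13.26 CPM in replicate 1 and 8.70 CPM in replicate 2.

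Of the 6 glycosidases, 2 rose and none fell, beside 10.9% of all genes tested called higher and 9.17% called lower. Glb1 encodes the lysosomal β-galactosidase, which removes galactose from gangliosides and keratan sulfate. It was at 56.05 and 54.26 CPM in Mock and at 74.61 and 78.43 CPM in FeSO4. The gap between the groups exceeded the spread within each, and the log2 fold change was 0.47 ± 0.08 (adjusted p = 0.00036), a 1.39-fold rise that was called under all 13 alternatives.

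The symbol Glb1 was also carried by a second gene identifier, which spans 6172 bp at the 5′ end of Glb1 and shares 165 bp of exon with it in the older annotation. RefSeq places the gene Tmppe in the same region. This row had 826 and 1132 reads in Mock and 786 and 889 reads in FeSO4, overlapping groups, and a log2 fold change of -0.02 ± 0.13 (adjusted p = 0.955). Glb1 is described here by the first row.

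Gla encodes α-galactosidase A, which cleaves terminal galactose from globosides. At 6.19 and 7.13 CPM in Mock and at 8.87 and 10.1 CPM in FeSO4, it was a low gene whose groups did not overlap. The log2 fold change was 0.51 ± 0.17 (adjusted p = 0.0449). The call was lost without Mock replicate 1 (0.40), without Mock replicate 2 (0.62) and without FeSO4 replicate 2 (0.41), and in DESeq2 (adjusted p = 0.0729). It was also lost with upper quartile scaling (adjusted p = 0.0548), with library size as the only scaling (adjusted p = 0.0787) and with no filter on low counts (adjusted p = 0.129), so that Gla was called in 6 of the 13 alternatives.

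The other 4 glycosidases did not pass the test. Hexa, the α subunit of β-hexosaminidase, was at 46.75 and 43.4 CPM in Mock and at 44.75 and 45.6 CPM in FeSO4, with a log2 fold change of 0.0035 ± 0.085. Gaa (acid α-glucosidase, which degrades glycogen) and Gusb (β-glucuronidase) had overlapping groups, with log2 fold changes of -0.04 ± 0.11 and 0.05 ± 0.08. Neu1, the lysosomal sialidase, was at 31.55 and 32.59 CPM in Mock and at 38.82 and 33.34 CPM in FeSO4. Its groups did not overlap, but FeSO4 replicate 2 lay close to Mock (log2 fold change 0.17 ± 0.10, adjusted p = 0.253). Leaving out that library gave 0.28, and leaving out FeSO4 replicate 1 gave 0.056.

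The lipid hydrolases and cofactors divided into 2 genes that rose and 2 whose values were lower but not called. Of all genes tested, 10.9% were called higher. Grn encodes progranulin, a cofactor of lysosomal lipid and protein breakdown. It was at 66.3 and 65.14 CPM in Mock and at 91.86 and 87.67 CPM in FeSO4. The groups were well separated, with a log2 fold change of 0.45 ± 0.07 (adjusted p = 0.0004), and Grn was called under all 13 alternatives with log2 fold changes of 0.38 to 0.48. Asah1, the acid ceramidase gene, was at 45.97 and 43.9 CPM in Mock and at 58.03 and 52.79 CPM in FeSO4. Its log2 fold change was 0.30 ± 0.08 (adjusted p = 0.018), and the call was lost without Mock replicate 2 (0.27) or FeSO4 replicate 1 (0.23), with library size as the only scaling and with no filter on low counts.

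Psap had lower values in FeSO4 without overlap of the groups, at 567.2 and 541 CPM in Mock and at 490.4 and 493.8 CPM in FeSO4. With a log2 fold change of -0.17 ± 0.06 it stood just outside the threshold (adjusted p = 0.0503). It was called lower under 7 of the 13 alternatives, among them DESeq2 (adjusted p = 0.0206), limma-voom (adjusted p = 0.0423) and the fit with the replicate number as a block (-0.17, adjusted p = 0.0189). Lipa, the acid lipase of cholesteryl esters, was at 50.94 and 54.12 CPM in Mock and at 46.5 and 48.93 CPM in FeSO4 (log2 fold change -0.14 ± 0.08, adjusted p = 0.264).

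The V-ATPase is built of a membrane sector, V0, through which protons pass, and a cytoplasmic sector, V1, which hydrolyses ATP. All 5 V0 and 7 V1 subunits among the members were well expressed in both groups. None of the 12 was called by edgeR, against 20.0% of all genes tested. In the same test 1 of the 12 had an unadjusted p under 0.05, against 4434 of the 13732 genes. DESeq2 and limma-voom called 0 of the 12, against 17.9% and 19.2% of all genes. Their log2 fold changes ran from -0.16 to 0.16, with a median of -0.02, and the intervals of 2 SE of all 12 lay between -0.30 and 0.32. The summed CPM of the 12 was 997.3 and 978.1 in Mock and 993.8 and 955.1 in FeSO4, and the groups overlapped.

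Within V0, Atp6v0a1 and Atp6v0a2 encode alternative forms of the a subunit, which carries the proton path and directs the pump to membranes. Atp6v0a1 was at 51.49 and 49.57 CPM in Mock and at 57.62 and 55.65 CPM in FeSO4, the largest positive log2 fold change of the 12 member subunits (0.16 ± 0.08, adjusted p = 0.163). Atp6v0a2 was at 96.44 and 97.09 CPM in Mock and at 95.19 and 84.29 CPM in FeSO4 (-0.11 ± 0.08, adjusted p = 0.339), and it moved to -0.20 without FeSO4 replicate 1 and to -0.02 without FeSO4 replicate 2. Another form, Tcirg1, which was not among the members, was at 93.34 and 84.91 CPM in Mock and at 85.82 and 87.15 CPM in FeSO4. Per exon length, Atp6v0a1 made up 16.8% and 16.9% of the summed a-subunit RPKM in Mock and 19.2% and 19.4% in FeSO4, without overlap. The shares of Atp6v0a2 (36.2% to 40.8%) and Tcirg1 (41.8% to 44.5%) overlapped between the groups. The share of a form also depends on the levels of the others. The CPM of 59.5% of all genes tested did not overlap either, and no difference in these shares was tested. Atp6v0a4, a form known from kidney, had 0 reads in every library.

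The proteolipid ring of V0 is formed by the products of Atp6v0c and Atp6v0b, and Atp6v0d1 links it to the stalk. Atp6v0c was at 49.15 and 45.2 CPM in Mock and at 48.16 and 40.77 CPM in FeSO4, and Atp6v0b at 57.16 and 53.23 CPM in Mock and at 58.64 and 56.65 CPM in FeSO4. Both overlapped between groups, with log2 fold changes of -0.09 ± 0.09 and 0.06 ± 0.08. Atp6v0d1 was at 101.3 and 99.1 CPM in Mock and at 95.68 and 94.83 CPM in FeSO4 (-0.07 ± 0.07).

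In V1, Atp6v1a and Atp6v1b2 encode the A and B subunits of the catalytic head. Atp6v1b2 was at 101.4 and 97.21 CPM in Mock and at 88.27 and 89.15 CPM in FeSO4, without overlap, and was the one with the smallest adjusted p of the 12 member subunits (-0.16 ± 0.07, adjusted p = 0.116). With library size as the only scaling it was called lower (-0.23, adjusted p = 0.0283). Its partner Atp6v1a was at 105.3 and 106.8 CPM in Mock and at 106.9 and 97.88 CPM in FeSO4 (-0.05 ± 0.07), with overlapping groups. Atp6v1h, whose product holds the free V1 sector inactive and is needed for pumping, was at 58.61 and 59.73 CPM in Mock and at 52.34 and 55.36 CPM in FeSO4 (-0.14 ± 0.08, adjusted p = 0.251). The stalk subunits Atp6v1c1, Atp6v1d, Atp6v1e1 and Atp6v1f had log2 fold changes of 0.05, 0.02, 0.06 and 0.07, with adjusted p-values of 0.510 to 0.901.

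The other genes of the pump were examined in the same fit. Of 13 V-ATPase subunits and accessory proteins outside the members, 6 passed the filter, 2 of them rose, and their median log2 fold change was 0.13. Atp6v1g1, a further stalk subunit, was at 101.7 and 101.5 CPM in Mock and at 128.2 and 131.7 CPM in FeSO4 (0.36 ± 0.07, adjusted p = 0.00133). Atp6v0e, a small membrane subunit, was at 97.7 and 95.53 CPM in Mock and at 117 and 106.5 CPM in FeSO4 (0.21 ± 0.07, adjusted p = 0.0493). The call of Atp6v0e was held in 3 of the 13 alternatives only, and not in DESeq2 or limma-voom. Without Mock replicate 1 it was 0.22 (adjusted p = 0.1), and without FeSO4 replicate 1 0.14.

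Hydrolases and cofactors outside the members numbered 32, and 31 passed the filter. Of these 4 rose and 4 fell, with a median log2 fold change of -0.05. Arsb, a sulfatase of glycosaminoglycan breakdown, fell by 0.64 ± 0.09 on the log2 scale (adjusted p = 8.51e-05). Acp5, an acid phosphatase known from osteoclasts and macrophages, fell by 0.52 ± 0.11 (adjusted p = 0.00262), with 46.02 and 45.75 CPM in Mock and at 27.55 and 36.15 CPM in FeSO4. On that scale Acp5 moved to -0.34 when FeSO4 replicate 1 was left out, and to -0.74 when FeSO4 replicate 2 was. Gm2a, the GM2 ganglioside activator that works with Hexa, rose by 0.26 ± 0.06 (adjusted p = 0.00879), a call lost without FeSO4 replicate 2 (0.19, adjusted p = 0.12).

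Of 21 further membrane proteins and sorting receptors, 19 passed the filter, 2 rose and 3 fell, with a median of -0.10. Igf2r, the large mannose 6-phosphate receptor that carries newly made hydrolases to endosomes, fell from 250.7 and 272 CPM in Mock to 146.9 and 159.1 CPM in FeSO4 (-0.77 ± 0.07, adjusted p = 8.65e-07). The small mannose 6-phosphate receptor, M6pr, was at 199 and 201 CPM in Mock and at 213.1 and 205.6 CPM in FeSO4 and was not called; it was added after its values were seen. Scarb2, the carrier of β-glucocerebrosidase, fell by 0.27 ± 0.07 (adjusted p = 0.0096) and Laptm5 by 0.20 ± 0.06 (adjusted p = 0.0202) on the log2 scale. Mcoln2, a relative of Mcoln1, rose by 1.10 ± 0.31 (adjusted p = 0.0183) from a low level of 116 and 59 reads in Mock to 181 and 143 reads in FeSO4. Leaving out 1 library moved Mcoln2 between 0.67 (without Mock replicate 2) and 1.68 (without Mock replicate 1), and the call was lost without Mock replicate 2 or FeSO4 replicate 1. The call of Scarb2 was lost without the same libraries. That of Laptm5 was lost without Mock replicate 1 (-0.19), FeSO4 replicate 1 (-0.21) or FeSO4 replicate 2 (-0.19).

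Genes that control TFEB were read beside Tfeb. In the list of mTORC1 and Rag GTPase genes, 20 of 21 passed the filter, 1 rose and 2 fell, with a median log2 fold change of 0.0058. Rragd, a Rag GTPase of the lysosomal surface, fell by 0.38 ± 0.09 (adjusted p = 0.00632), and Tsc2, an inhibitor of mTORC1, by 0.24 ± 0.07 (adjusted p = 0.03). Rheb, the GTPase that activates mTORC1, rose by 0.25 ± 0.07 (adjusted p = 0.0237). Of the 22 autophagy genes, which all passed the filter, 1 rose (Gabarapl1, 0.32 ± 0.10, adjusted p = 0.0334) and 3 fell, with a median of -0.08. Without Mock replicate 1 Gabarapl1 was at 0.28 (adjusted p = 0.133) and Rheb at 0.23 (adjusted p = 0.0807), and without FeSO4 replicate 1 Gabarapl1 was at 0.19. The autophagy genes that fell were Ulk1, the kinase that starts autophagy (-0.27 ± 0.08, adjusted p = 0.0172), and the phosphoinositide-binding Wipi1 (-0.60 ± 0.19, adjusted p = 0.0318) and Wipi2 (-0.23 ± 0.08, adjusted p = 0.0415). The call of Wipi1 was lost without Mock replicate 1 (-0.57), Mock replicate 2 (-0.65) or FeSO4 replicate 2 (-0.47). Those of Tsc2, Ulk1, Wipi2 and Gabarapl1 were lost without Mock replicate 2 (-0.21, -0.24, -0.19 and 0.34). Leaving out FeSO4 replicate 1 also lost the calls of Tsc2, Wipi2 and Gabarapl1 (-0.25, -0.18 and 0.19). Leaving out FeSO4 replicate 2 lost those of Tsc2 and Ulk1 (-0.23 and -0.24).

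Genes of endosomal iron release and storage showed calls in both directions, with 3 higher and 1 lower of 8 that passed the filter, 10 having been listed, and a median of 0.20. Fth1 and Ftl1, the ferritin chains that store iron and reach the lysosome by ferritinophagy, rose by 0.39 ± 0.06 (adjusted p = 0.0004) and 0.26 ± 0.06 (adjusted p = 0.00765), the call of Ftl1 being lost without Mock replicate 2 or FeSO4 replicate 1. Both have near-identical copies in the genome, and the table sets aside reads that align more than once, so their levels are uncertain. Hmox1, the heme oxygenase that frees iron from heme, rose by 0.68 ± 0.15 (adjusted p = 0.00382). The iron importer Slc39a14 fell by 0.39 ± 0.11 on the log2 scale (adjusted p = 0.0215). Its call was lost without Mock replicate 1 (-0.35) or FeSO4 replicate 1 (-0.34). Ncoa4, the ferritin receptor of autophagy, was at 58.07 and 62.89 CPM in Mock and at 70.32 and 62.03 CPM in FeSO4 with overlapping groups, and it was added after its values were seen. Over the 6 lists, 26 of the 106 genes that passed the filter were called (24.5%, against 20.0% of all genes tested), and 8 of them, among these Atp6v1g1, Arsb, Acp5, Igf2r, Rragd, Fth1 and Hmox1, were called whichever library was left out. The other 18 lost the call without at least 1 library (10 without Mock replicate 1, 12 without Mock replicate 2, 13 without FeSO4 replicate 1 and 10 without FeSO4 replicate 2), Rheb without any 1 of the 4, and 0 of the 26 changed sign under any alternative.

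**Figure D4:**
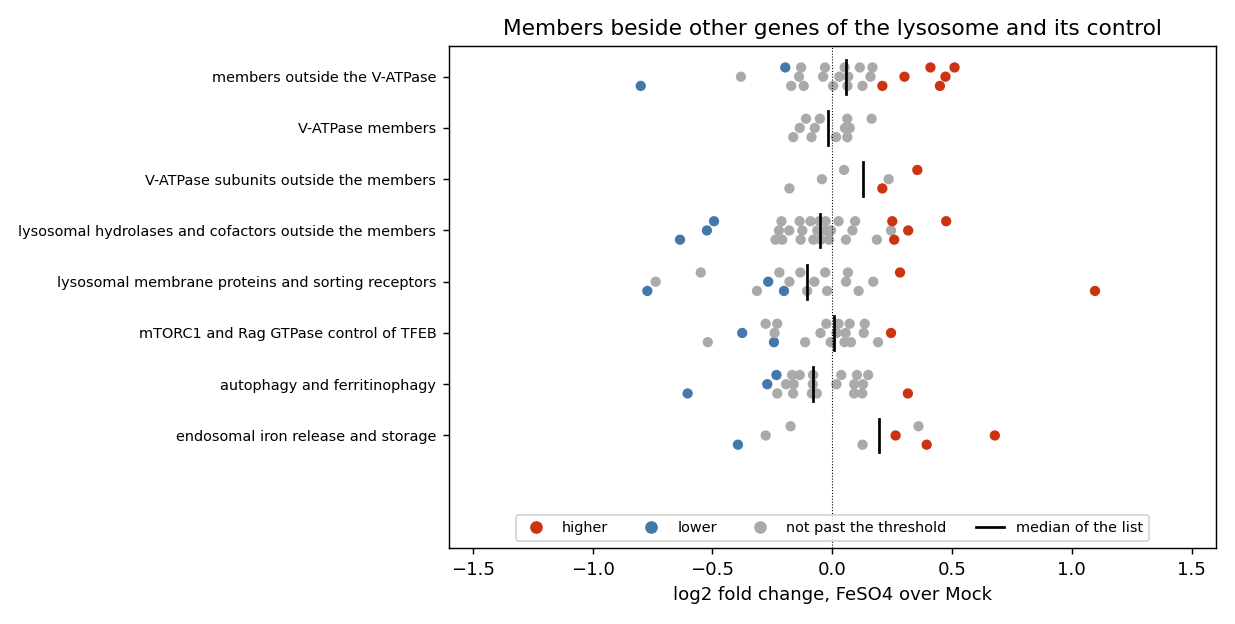
Log2 fold change of FeSO4 over Mock for each gene that passed the filter, in the members (upper 2 lines) and in 6 lists of related genes, with a black bar at each list's median; red points were called higher and blue points lower. The V-ATPase members cluster around 0, hydrolases outside the members hold 4 calls in each direction, and Ctsh, with 20, 12, 0 and 1 reads, lies outside the axis.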

How the data were processed

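RNA sequencing counts of 2 Mock and 2 FeSO4 iTreg libraries were analysed, with groups taken from the labels. The authors deposited raw counts per Ensembl gene, not normalized. Per the submitters' processing notes, Trim Galore 0.6.7, STAR 2.7.9a and featureCounts were used with build mm10, whereas the study's methods name mm9, and the table ends with 5 rows of unassigned reads named as another counter, htseq-count, names them. These rows held 15.9 to 17.3% of reads and were left out. Strand setting and annotation are not given in the sources used here. Of the gene IDs, 32799 had a symbol. No columns of other samples were present.

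Counts were kept by filterByExpr (13732 genes), scaled by TMM and tested with edgeR 4.0.16 (quasi-likelihood F test, legacy option off) in R 4.3.3. Benjamini-Hochberg adjustment ran over these genes. The standard error is the log2 fold change divided by the square root of F. CPM use TMM-scaled library sizes, and RPKM divide CPM by exon length in kilobases (GENCODE M1, mm9). A count of 3, the limit that a count of 0 allows, corresponds to 0.0734 to 0.0853 CPM by library size, for counting error only. Replicates differed by more than sampling noise (chi-square per degree of freedom 11.3 in Mock and 9.02 in FeSO4). The fit was tested on simulated data.

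Alternatives were DESeq2 1.42.0, limma-voom (limma 3.58.1), other scalings and filters, stricter thresholds, the replicate number as a block and each library left out. The legacy fit of edgeR was added after seeing the data. The members, lists, markers and tests were chosen with earlier results of these data known. All 36 members are named, with up to 4 called genes of smallest p per list. A gene that this rule selects is not reported here. Others are marked as added, except Tcirg1, Atp6v0a4 and Ctsh, which were also added after their values were seen.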

Additional observations from a re-analysis of the deposited data

How the results depend on the processing

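Ctss, Glb1 and Grn were called higher in all 13 refits. At an adjusted p under 0.01 the members held 3 higher and 0 lower calls (all genes 789 and 597), and at the study's threshold 1 and 1 (641 and 787). With library size as the only scaling, which moved the median of all genes to -0.07, 3 members were higher and 4 lower (980 genes higher and 1810 lower), and Atp6v1b2 was called lower. With no filter on low counts, which tests 22164 genes, 3 were higher and 0 lower (524 and 304 genes). With 1 library left out, 3 to 4 members were higher and 0 to 1 lower, and 926 to 1155 genes were higher and 751 to 1060 lower. No member was lower without Mock replicate 1, and Ctsl alone was lower without any other library. With the replicate block, 6 members were higher and 3 lower, Psap being added, and 1847 genes were higher and 1580 lower, 3427 in all against 2750. Over all genes tested, same-numbered libraries did not deviate together (correlation 0.03), which cannot settle whether the numbers mark pairs. The main fit stayed unpaired because the labels do not mark pairs. Of 468 single-member values, 409 kept direction and call, 25 lost a call, 8 gained one and 26 changed sign, all of them in members that were not called. With library size alone these were Ctsb (-0.0015), Ctsd (-0.035), Hexa (-0.061), Gusb (-0.013), Atp6v0b (-0.0024), Atp6v1c1 (-0.012), Atp6v1d (-0.049) and Atp6v1e1 (-0.0021). With upper quartile scaling they were Hexa (-0.016) and Atp6v1d (-0.0031). Hexa also changed sign in DESeq2 (-0.00094), with its size factors (-0.00069) and with at least 10 counts in every library (-0.0020). With 1 library left out, the ranges that crossed 0 were -0.12 to 0.058 for Tfeb, -0.33 to 0.055 for Mitf, -0.054 to 0.18 for Ctsc, -0.050 to 0.11 for Ctsd, -0.19 to 0.10 for Gaa, -0.050 to 0.048 for Hexa, -0.0040 to 0.10 for Gusb, -0.21 to 0.030 for Atp6v0c, -0.12 to 0.011 for Atp6v1a and -0.014 to 0.12 for Atp6v1c1. Besides members already described, Atp6v0b (0.011 to 0.10), Atp6v1d (0.0096 to 0.022), Atp6v1e1 (0.023 to 0.093) and Atp6v1f (0.037 to 0.10) moved by over 1.5 times without crossing 0. The cause of these changes was not tested. Depth limits Mitf and Cd63 most, at 29 to 85 reads a library and standard errors of 0.43 and 0.38.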
